A study of Mus musculus with 407 samples.

Results

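The mouse Hox genes are a family of 39 transcription factor genes, and all 39 stood among the 24458 gene symbols of the count tables analysed here. They were taken by symbol alone, whatever their level: 11 from the Hoxa cluster on chromosome 6, 10 from Hoxb on chromosome 11, 9 from Hoxc on chromosome 15 and 9 from Hoxd on chromosome 2. The 407 RNA-seq libraries came from 4 muscles of male and female C57BL/6J mice, namely the diaphragm (98 libraries), gastrocnemius (104), soleus (103) and tibialis anterior (102). The mice were 6, 12, 18, 21, 24 or 27 months old, each combination of muscle, sex and age held 6 to 10 libraries, and the labels name no transgene or treatment in any group. Muscles from mice of the same age were collected on the same day, so age and day of collection cannot be told apart. The libraries held 38583802 to 300089909 counts, with a median of 72766895. Levels are given as CPM, the count of a gene relative to the total of its library, scaled for library composition. The RNA came from bulk muscle, in which fewer cells of a type and less RNA per cell cannot be told apart.

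Hox proteins bind DNA through the homeodomain, coded by the homeobox, and give cells along the body axis their positional address in the embryo. The genes lie in 4 clusters in which the order on the chromosome follows the order of use along the body. Low paralog numbers act towards the head, and paralog groups 9 to 13 towards the tail and in the limb buds. Muscle precursors of the diaphragm leave somites of the neck, those of the hindlimb muscles leave somites next to the hindlimb bud, and both kinds of muscle are built around connective tissue that carries its own positional address.

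A homeobox was found in all 39 genes. The 3 shown here belong to members on which most of the results turn, and are printed 5′ to 3′ on the coding strand of the GENCODE M21 transcripts (GRCm38), with the conserved codons of the DNA-contacting helix, by which each homeobox was found, in capitals. Per kilobase of exon, Hoxa5 had the highest median CPM of the 39 in diaphragm (6.49), Hoxc10 the highest in every limb muscle (27.9 in gastrocnemius), and Hoxd8 the next after Hoxc10 in gastrocnemius (15.6).
Hoxa5: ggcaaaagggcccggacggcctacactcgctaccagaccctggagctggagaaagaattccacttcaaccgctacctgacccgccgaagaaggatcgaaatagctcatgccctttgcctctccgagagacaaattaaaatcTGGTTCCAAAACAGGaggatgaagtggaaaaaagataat
Hoxc10: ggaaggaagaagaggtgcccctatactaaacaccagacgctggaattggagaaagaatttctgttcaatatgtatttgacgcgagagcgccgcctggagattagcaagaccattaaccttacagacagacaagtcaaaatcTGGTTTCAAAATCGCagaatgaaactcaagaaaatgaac
Hoxd8: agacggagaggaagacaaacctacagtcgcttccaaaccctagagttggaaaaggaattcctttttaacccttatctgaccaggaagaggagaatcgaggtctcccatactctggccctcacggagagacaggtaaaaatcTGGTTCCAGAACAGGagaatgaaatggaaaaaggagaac
Over these 180 bases Hoxc10 shared 60.6% with Hoxa5, against 82.8% with its paralog Hoxd10 and 80.6% with its paralog Hoxa10. Hoxa5 shared 83.9% with its paralog Hoxb5. Hoxa5 lies at chr6:52201754-52204587 on the minus strand, Hoxc10 at chr15:102966796-102971898 on the plus strand and Hoxd8 at chr2:74704615-74707933 on the plus strand (GRCm38).

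The diaphragm and the hindlimb muscles expressed different stretches of the clusters. With a median of at least 0.1 CPM taken as present, 25 members were present in diaphragm, 32 in soleus and 31 in each of the other limb muscles. In paralog groups 1 to 8, 21 of 23 members were present in each muscle. In paralog groups 9 to 13, 4 of 16 were present in diaphragm against 11 in soleus and 10 in each of the other limb muscles. At this limit diaphragm expression ended at Hoxa9, Hoxb8, Hoxc9 and Hoxd10, and limb expression at Hoxa13, Hoxb9, Hoxc11 and Hoxd10, or Hoxd11 in soleus. The ends depend on the limit. In diaphragm they were Hoxa10, Hoxb9, Hoxc10 and Hoxd10 at 0.02 CPM and Hoxa7, Hoxb6, Hoxc6 and Hoxd9 at 0.5 CPM, and some limb ends moved too. Hoxb1, Hoxb13, Hoxc12, Hoxd1, Hoxd12 and Hoxd13 had 0 to 63 reads over all libraries of any 1 muscle and a median of 0 in each, so they were not detectable as expressed at this depth and entered no test between muscles.

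**Figure D1:**
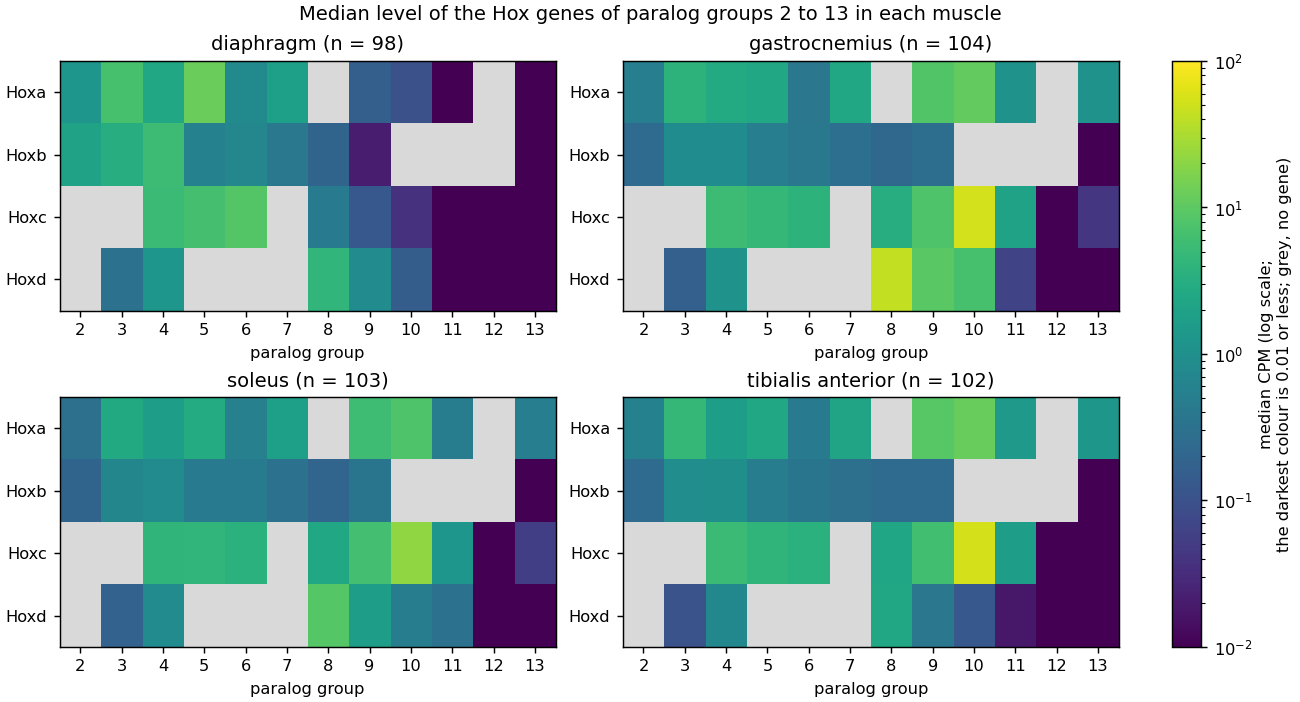
Median CPM of each Hox gene of paralog groups 2 to 13 in each muscle on a logarithmic colour scale, with clusters in rows and paralog groups in columns; grey marks positions that hold no gene. Hoxc10 reaches 55.6 CPM in tibialis anterior, 53.3 in gastrocnemius and 21.3 in soleus but 0.0376 in diaphragm, where Hoxa5 stands at 12.2 CPM and the right-hand columns are dark.

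The share of Hox reads that came from paralog groups 9 to 13 put this difference into a single value per library. It ran from 0.865% to 4.17% in diaphragm (median 2.35%), from 53.2% to 62.0% in gastrocnemius, from 46.2% to 61.2% in soleus and from 64.4% to 77.6% in tibialis anterior. The diaphragm libraries lay below every limb library, and the tibialis anterior libraries lay above all gastrocnemius and soleus libraries. All Hox genes together took a median of 67.6 CPM in diaphragm and 85.8 in soleus, against 122 in tibialis anterior and 179.7 in gastrocnemius.

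**Figure D2:**
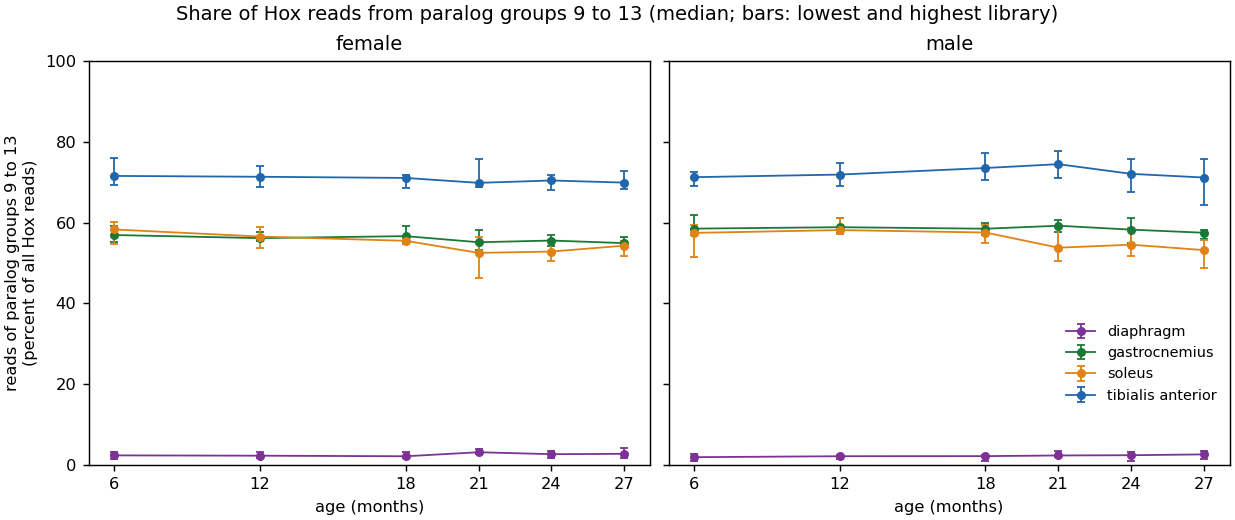
Reads of paralog groups 9 to 13 as a percentage of all Hox reads, against age in months, with points at the group medians and bars to the lowest and highest library, for females and males. Over the 6 ages the group medians lie between 1.87% and 3.10% in diaphragm and between 69.8% and 74.5% in tibialis anterior.

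Diaphragm was compared with the mean of the limb muscles, in each sex, over all genes that passed a filter on low counts, which 33 of the 39 Hox genes did. A gene was called where its fold exceeded 1.5 at an adjusted p under 0.05 (edgeR's quasi-likelihood test, Benjamini-Hochberg adjustment). In females 25 members were called, 12 higher in diaphragm and 13 lower, which is 64.1% of the 39, where 47.6% of all genes tested were called. In males 24 were called, 11 higher and 13 lower, where 46.8% of all genes were. The members called higher made up 30.8% of the 39 in females and 28.2% in males. The background among genes tested was 31.7% and 28.0%, and 6 of the 39 were not tested. The members called lower made up 33.3% in each sex, above the background of 15.9% and 18.7%. In both sexes alike, 11 members were higher (26.4% of 16811 genes) and 13 lower (14.7%).

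Direction followed paralog number. Of the 12 members of groups 1 to 4, 7 were higher in diaphragm in both sexes and 0 lower, and the 10 tested had a median log2 difference of 1.35 in females and 1.04 in males. Of the 11 members of groups 5 to 8, 4 were higher and 2 lower, with medians of 0.54 and 0.24. Of the 16 members of groups 9 to 13, 0 were higher and 11 lower, with medians of -5.42 and -5.74 over the 12 tested. Hoxa11, Hoxa13, Hoxb9, Hoxc11, Hoxc13 and Hoxd11 failed the filter in the fits of diaphragm alone in both sexes. Hoxc10 failed it in males. Where they failed, these members entered this test through their limb counts, so they could hardly come out higher. This limits every count of members lower in diaphragm, here and elsewhere, and the size of these medians. The median over all genes tested was 0.08 in females and -0.02 in males. The 5 members of groups 9 to 13 that were not called are Hoxb13, Hoxc12, Hoxd12 and Hoxd13, which were not tested, and Hoxc13, for which the fit over all ages gave no usable standard error. At single ages Hoxc13 was called lower in diaphragm at 5 of 6 ages in females (log2 differences of -5.56 to -4.15) and at 12 and 27 months in males (-4.03 and -4.49).

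**Figure D3:**
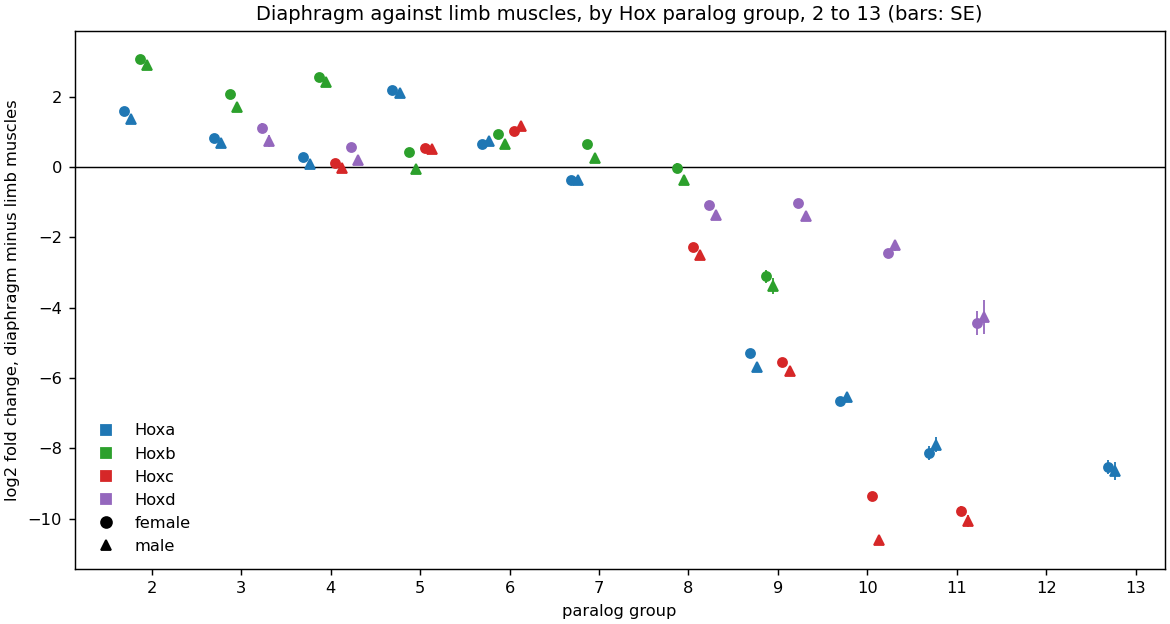
Log2 fold change of each Hox gene of paralog groups 2 to 13, diaphragm minus the mean of the limb muscles, against paralog group, with the SE as bars, for females and males, coloured by cluster. The values run from Hoxb2 at 3.06 and 2.89 down to Hoxc10 at -9.37 and -10.62. Hoxc11, with no read in any diaphragm library, is drawn at its fitted value, which depends on the prior count, and Hoxc13 and the untested members are left out.

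Hoxc10, which patterns the lumbar body level and the hindlimb, carried the largest part of the limb signal. Its level ran from 0 to 0.287 CPM in diaphragm (median 0.0376, 30 of 98 libraries at 0), from 40.1 to 76.5 in gastrocnemius (median 53.3), from 14.2 to 33.4 in soleus (median 21.3) and from 42.8 to 69.6 in tibialis anterior (median 55.6). Every diaphragm library lay below every limb library. Soleus lay below the other limb muscles without overlap, for which no share of all genes was counted. Pooled over libraries, diaphragm held 486 reads or 0.0593 CPM (95% Poisson interval 0.0542 to 0.0649, counting error only) against 42.8 CPM in limb, a 722-fold difference. The log2 fold change was -9.37 ± 0.09 in females and -10.62 ± 0.11 in males (SE), with adjusted p of 1.6e-164 and 2.9e-156.

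Hoxc11, its neighbour in the cluster and another hindlimb gene, had 0 reads in all 98 diaphragm libraries and 35862 in the limb libraries. Its level ran from 1.06 to 3.26 CPM in gastrocnemius, from 0 to 2.70 in soleus and from 0.901 to 2.67 in tibialis anterior. Against the level of 3 counts over all diaphragm libraries, limb was at least 4622-fold higher. Hoxa13, needed for the hand and foot, had 10 reads in diaphragm, with 93 of 98 libraries at 0, against medians of 1.15, 0.523 and 1.29 CPM in gastrocnemius, soleus and tibialis anterior. Hoxa11, needed for the forearm and lower leg, had 35 reads, with 90 of 98 libraries at 0, against medians of 1.15, 0.504 and 1.42. Pooled limb levels of these genes were 789.6-fold and 241-fold those of diaphragm. Antisense Hoxa11os covers 24.8% of the exon bases of Hoxa11, and since it is not stated whether counting used strand, the values of Hoxa11 are uncertain.

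Hoxa9, Hoxa10 and Hoxc9 had a low but measurable diaphragm level. Hoxa9 ran from 0 to 0.634 CPM in diaphragm with a median of 0.160, against medians of 8.34, 5.82 and 9.13 in gastrocnemius, soleus and tibialis anterior. Hoxa10, which specifies lumbar vertebrae, ran from 0 to 0.414 with a median of 0.0970, against 11.1, 8.02 and 11.9. Hoxc9, which sets thoracic identity in motor neurons, ran from 0 to 0.455 with a median of 0.126, against 7.84, 6.36 and 6.16. In Hoxa9, Hoxa10, Hoxc9 and Hoxc10 every diaphragm library lay below every limb library, as in 0.169% of 22441 genes. The log2 fold changes of Hoxa9, Hoxa10 and Hoxc9 were -5.29 ± 0.11, -6.67 ± 0.11 and -5.56 ± 0.09 in females and -5.68 ± 0.12, -6.54 ± 0.14 and -5.81 ± 0.11 in males.

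Smaller differences in the same direction marked Hoxb9 (-3.12 ± 0.20 in females and -3.38 ± 0.23 in males), the only Hoxb member called lower, and Hoxc8 (-2.26 ± 0.11 in females and -2.51 ± 0.09 in males), which acts at the level of the forelimb and thorax. Hoxc8 ran from 0.0608 to 5.54 CPM in diaphragm with a median of 0.459, against limb medians of 3.07, 2.42 and 2.37. The highest diaphragm value came from a single library, replicate 0 of the females of 27 months. In it Hoxc8 was at 5.54 CPM and Hoxd8 at 13.8, where the other 97 diaphragm libraries reached 1.73 and 7.44. Hoxa4 and Hoxa6, at 0.613 and 0.00818 CPM, were lower than in any other diaphragm library. Its adipocyte markers summed to 3692 CPM, above the highest of the others at 1491, and its skeletal muscle markers to 7873 against a median of 22450. Without this library, an alternative chosen after seeing the data, 25 members were called in females as before and the Hoxc8 difference was -2.43.

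Hoxa5 stood on the other side. It acts in the neck and the respiratory tract and in the phrenic motor neurons that drive the diaphragm. Its level ran from 6.96 to 16.5 CPM in diaphragm with a median of 12.2, from 1.44 to 3.50 in gastrocnemius, from 1.67 to 5.93 in soleus and from 1.59 to 3.55 in tibialis anterior. Every diaphragm library lay above every limb library, as in 0.339% of 22441 genes. The log2 fold change was 2.19 ± 0.03 in females and 2.09 ± 0.04 in males (adjusted p of 6.6e-126 and 7.3e-110).

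Of the anterior Hoxb genes, which pattern the hindbrain and neck, Hoxb2 and Hoxb4 had the largest log2 differences among the members higher in diaphragm. Hoxb2 ran from 0.436 to 3.50 CPM in diaphragm with a median of 1.99, against medians of 0.247, 0.194 and 0.250 in gastrocnemius, soleus and tibialis anterior. Hoxb4 ran from 2.04 to 7.46 with a median of 5.60, against 0.890, 0.865 and 0.988. Hoxb3 ran from 1.43 to 5.41 with a median of 3.16, against 0.872, 0.685 and 0.916. In each of the 3 the lowest diaphragm libraries overlapped the highest limb libraries. The log2 fold changes of Hoxb2, Hoxb4 and Hoxb3 were 3.06 ± 0.10, 2.56 ± 0.05 and 2.06 ± 0.07 in females and 2.89 ± 0.11, 2.42 ± 0.07 and 1.71 ± 0.08 in males. Antisense Hoxb3os covers 58.5% of the exon bases of Hoxb2 and 63.9% of those of Hoxb3, which makes their values uncertain, while Hoxb4 shares none.

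Hoxa2 and Hoxa3, genes of the hindbrain and pharyngeal arches, were higher as well, with log2 fold changes of 1.58 ± 0.07 and 0.83 ± 0.04 in females and 1.35 ± 0.10 and 0.67 ± 0.06 in males. Hoxa3 had a median of 6.81 CPM in diaphragm and 2.73 to 4.57 in the limb muscles. Antisense Gm29430, Hoxaas2 and Hoxaas3 cover 21.2% of the exon bases of Hoxa3. Gm28308, on the same strand, covers 10.1% of those of Hoxa3 and 15% of those of Hoxa2, so both genes have uncertain values. Hoxc6, a gene of the forelimb level with a median of 8.36 CPM against 3.79, 3.54 and 3.59, was higher by 1.03 ± 0.03 in females and 1.16 ± 0.04 in males. Hoxa6, Hoxb6 and Hoxd3 differed by 0.64, 0.95 and 1.12 in females and 0.73, 0.65 and 0.74 in males. Gm28230, annotated on the same strand, covers 68.6% of the exon bases of Hoxd3 and 45.1% of those of Hoxd4, which makes their values uncertain.

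Other members of groups 4 to 8 differed less. Hoxc4 had medians of 5.39 CPM in diaphragm and 5.58, 4.17 and 5.41 in the limb muscles, and its log2 difference was 0.11 ± 0.04 in females and -0.02 ± 0.04 in males. Hoxc5 differed by 0.54 ± 0.03 in females and 0.51 ± 0.04 in males, which passed the limit on p (adjusted p of 1.5e-38 and 1.0e-24) but not that on fold. Hoxa4 (0.27 and 0.09), Hoxa7 (-0.36 and -0.37), Hoxb5 (0.42 and -0.06), Hoxb8 (-0.03 and -0.37) and Hoxd4 (0.56 and 0.21) were called in neither sex. Antisense Hoxaas3 covers 23.3% of the exon bases of Hoxa7 and antisense Gm29430 16% of those of Hoxa4, which makes their values uncertain. Hoxb7 was called in females at 0.64 ± 0.11 and not in males at 0.24 ± 0.13, and the difference between the sexes was not tested.

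**Figure D4:**
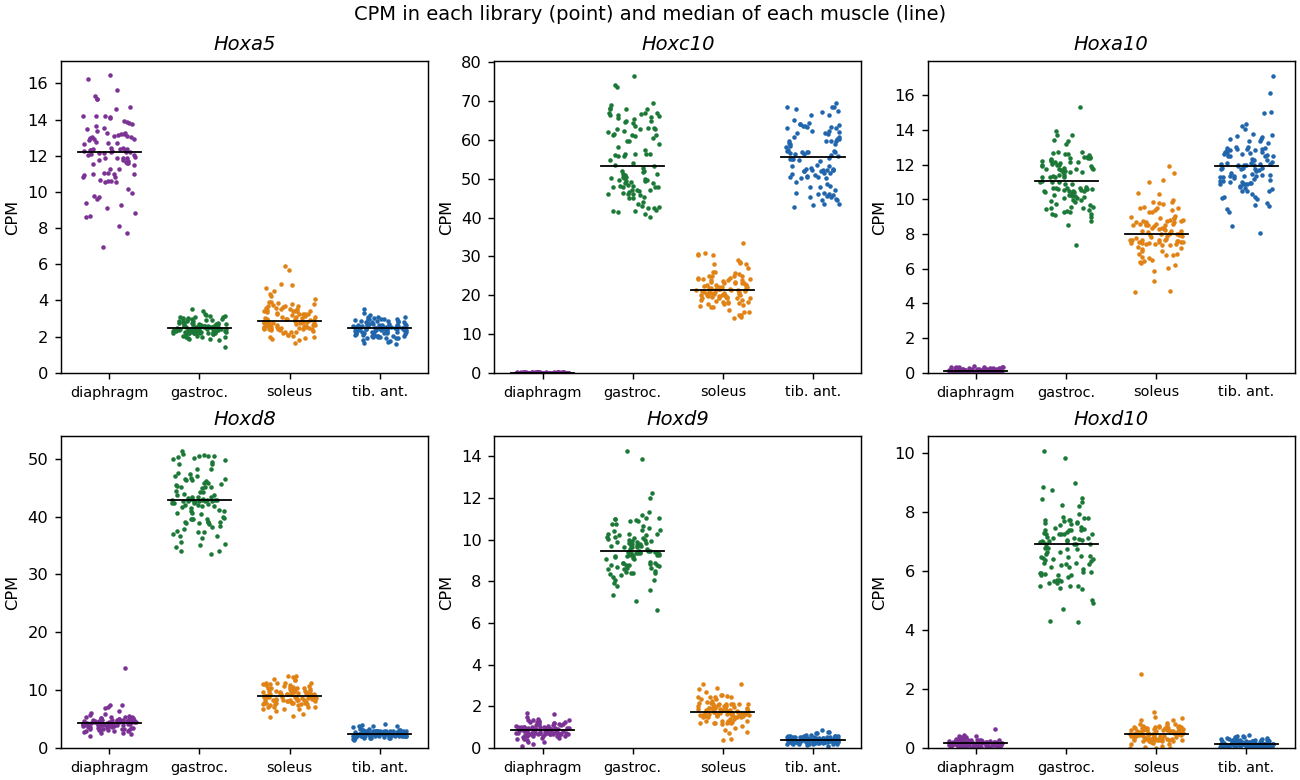
CPM of 6 Hox genes in each of the 407 libraries (points) with the median of each muscle (line). Hoxa5 sets diaphragm apart at 6.96 to 16.5 CPM, Hoxc10 sets it apart below 0.3 CPM, and Hoxd8 sets gastrocnemius apart at 33.6 to 51.4 CPM.

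Among all 6898 genes called in the same direction in both sexes, ranked by the smaller of the absolute log2 differences, Hoxc10 was number 9. Hoxc11 was number 8, a place that depends on the prior count, as may the counts that follow. Hox genes were 4 of the 10 and 9 of the 50 largest lower in diaphragm and 0 of the 50 largest higher. The 5 largest lower ones that are no Hox genes were Sim1, Hotair, 4933415F23Rik, Mettl21c and Myh13. Sim1, a transcription factor of limb muscle precursors, had a median of 0 in diaphragm and 19.7 CPM in limb. Hotair, a noncoding RNA from the Hoxc cluster, had a median of 0 in diaphragm and 0.969 CPM in limb. Among the 5 largest higher ones were Upk3b, Upk1b, Chst4 and Lrp2, with diaphragm medians of 3.46 to 32.8 CPM and limb medians of 0. Upk3b and Upk1b are markers of mesothelium, the lining of body cavities. The mesothelium markers together summed to 65.6 to 430.4 CPM in diaphragm (median 203) against limb medians of 4.69, 3.97 and 2.37, with 10 of 11 higher in diaphragm. The fibroblast markers summed to a median of 2387 CPM in diaphragm against 1555, 1668 and 1209, with 7 of 12 higher. The part of these cells in the Hox differences was not tested.

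The limb muscles also differed from each other. In any pair, 13 of the 33 members tested were called in females and 16 in males. Of all genes tested, 42.0% and 43.1% were called, so in number the Hox genes lay near the background. Between gastrocnemius and soleus 9 were called in females and 11 in males (29.3% and 30.9% of all genes), between gastrocnemius and tibialis anterior 6 in each sex (15.0% and 14.2%) and between soleus and tibialis anterior 11 and 14 (32.6% and 32.8%). Hoxd8, Hoxd9 and Hoxd10, which act in limbs and lumbar segments, went down together from gastrocnemius over soleus to tibialis anterior. Their promoters, the 250 bases before the RefSeq start of each gene on the plus strand, are shown because the 3 genes moved together (GRCm38.p6, CG pairs in capitals). GENCODE M21 lets Hoxd10 begin further upstream, at chr2:74684273-74695106, so that the bases shown for it lie inside that gene model.
Hoxd8, chr2:74704365-74704614: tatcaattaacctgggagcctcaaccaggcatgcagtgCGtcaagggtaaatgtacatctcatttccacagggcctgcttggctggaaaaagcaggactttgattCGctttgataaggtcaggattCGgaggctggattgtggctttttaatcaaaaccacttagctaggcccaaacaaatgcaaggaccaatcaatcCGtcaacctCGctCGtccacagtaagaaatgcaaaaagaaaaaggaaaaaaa
Hoxd9, chr2:74697513-74697762: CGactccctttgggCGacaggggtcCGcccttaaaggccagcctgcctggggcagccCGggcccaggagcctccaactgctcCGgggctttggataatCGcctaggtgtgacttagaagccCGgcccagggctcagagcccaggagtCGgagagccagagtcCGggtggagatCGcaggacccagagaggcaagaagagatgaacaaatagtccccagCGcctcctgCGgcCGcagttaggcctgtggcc
Hoxd10, chr2:74691641-74691890: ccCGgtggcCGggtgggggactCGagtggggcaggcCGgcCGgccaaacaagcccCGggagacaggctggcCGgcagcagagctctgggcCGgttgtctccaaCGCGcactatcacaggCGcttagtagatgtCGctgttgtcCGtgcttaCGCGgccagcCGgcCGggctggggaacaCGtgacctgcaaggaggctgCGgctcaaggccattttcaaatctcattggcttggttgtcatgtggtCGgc
They hold 6, 13 and 20 CG pairs. The 24 promoters of 22 Hox genes in the table held a median of 12.5 in the same window, and 62.5% held 10 or more, against a median of 6.0 and 37.8% over all 32851 promoters. The Hox-Pbx motif TGATTNAT, searched on both strands, was in 2 of the 24 (2.82% of all promoters), those of Hoxa2 and Hoxd11. The motif TTTATGG, bound by posterior Hox proteins, was in that of Hoxd4 alone (2.43%), and TATAAA in 4, those of Hoxa10, Hoxb8, Hoxd4 and Hoxd13 (12.4%). These letters were in none of the 3 promoters shown.

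Hoxd8 ran from 33.6 to 51.4 CPM in gastrocnemius, from 5.34 to 12.5 in soleus and from 1.38 to 4.16 in tibialis anterior, and the 3 muscles did not overlap. Hoxd9 ran from 6.62 to 14.3, from 0.369 to 3.09 and from 0.101 to 0.862, so gastrocnemius stood apart and soleus overlapped tibialis anterior. Hoxd10 ran from 4.27 to 10.1, from 0 to 2.51 and from 0 to 0.425, with the same order. The share of all genes without overlap between limb muscles was not counted. Between gastrocnemius and tibialis anterior the log2 differences of Hoxd8, Hoxd9 and Hoxd10 were 4.06 ± 0.06, 4.46 ± 0.08 and 5.42 ± 0.15 in females and 4.11 ± 0.06, 4.68 ± 0.11 and 5.50 ± 0.19 in males. Between soleus and tibialis anterior they were 1.94 ± 0.06, 2.16 ± 0.08 and 1.82 ± 0.14 in females and 1.74 ± 0.05, 2.10 ± 0.10 and 1.53 ± 0.17 in males.

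This gradient crossed the diaphragm level. Hoxd8 and Hoxd9 had diaphragm medians of 4.30 and 0.853 CPM, between those of soleus (8.97 and 1.72) and tibialis anterior (2.46 and 0.380). Against tibialis anterior alone they were higher in diaphragm, by 0.90 ± 0.05 and 1.17 ± 0.08 in females and 0.57 ± 0.05 and 0.87 ± 0.10 in males, of which Hoxd8 in males missed the limit on fold (55.1% of all genes were called in females and 55.1% in males). Against the mean of the limb muscles Hoxd8 was lower (-1.10 ± 0.05 in females and -1.38 ± 0.05 in males). For Hoxd10 the difference between diaphragm and tibialis anterior was -0.03 ± 0.15 in females and 0.11 ± 0.18 in males (95% intervals -0.33 to 0.26 and -0.25 to 0.47). Hoxd11, a gene of the lower limb segment, followed another order, with medians of 0.312 CPM in soleus, 0.0669 in gastrocnemius and 0.0180 in tibialis anterior, and its difference of gastrocnemius minus soleus was -2.18 ± 0.25 in females and -2.27 ± 0.23 in males. Gm28309, on the same strand, covers 23.9% of the exon bases of Hoxd11, which makes its values uncertain.

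Genes of the Hoxa and Hoxc clusters set soleus apart. Hoxc10 was higher in gastrocnemius than in soleus by 1.21 ± 0.05 in females and 1.44 ± 0.06 in males, and its difference of soleus minus tibialis anterior was -1.29 ± 0.05 in females and -1.46 ± 0.06 in males. Between gastrocnemius and tibialis anterior it was -0.08 ± 0.05 in females and -0.01 ± 0.06 in males. Hoxa11 and Hoxa13 were also higher in gastrocnemius than in soleus, by 1.05 ± 0.11 and 1.07 ± 0.11 in females and 1.32 ± 0.13 and 1.19 ± 0.14 in males. Genes detected ran from 13270 to 16962 in soleus, where the lowest library of any other muscle had 15256.

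Hoxc13, a gene of hair and nails, had medians of 0.0431 CPM in gastrocnemius and 0.0552 in soleus and was at 0 in 90 of 102 tibialis anterior and 95 of 98 diaphragm libraries. Its difference between gastrocnemius and tibialis anterior was 4.60 ± 0.46 in females and 4.20 ± 0.50 in males. The 6 libraries with 0.4 CPM or more had skin epithelium markers summing to 124 to 309 CPM, where the median of the other gastrocnemius and soleus libraries was 3.0 and the highest 554. The next below were female gastrocnemius 27 months replicate 4, male soleus 24 months replicate 7 and female soleus 27 months replicate 7. They had 0.396, 0.339 and 0.316 CPM of Hoxc13, with skin sums of 361, 3.37 and 2.76 CPM. From 6 to 27 months the change of Hoxc13 in females differed between soleus and tibialis anterior by 5.23 ± 1.53 (adjusted p = 0.02, 7.57% of all genes). The difference was 2.66 (adjusted p = 0.40) without the libraries whose skin markers summed to over 10 CPM, an alternative chosen after seeing the data. For this limit CPM was not scaled for library composition. The part of skin in these differences was not tested.

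In a split of the log2 CPM variation of each gene among muscle, sex within muscle, age within sex and muscle, and libraries of the same group, muscle took a median of 56.0% over all 39 members and age 6.67%. Over the 33 members tested in both sexes the medians were 69.5% and 3.26%, and over all genes tested 42.9% and 6.77%. Muscle took over 90% in 10 members (2.59% of all genes), from Hoxa9 at 90.6% to Hoxc11 at 97.8%, with Hoxd8 at 97.0% and Hoxc10 at 96.0%. Age took more than muscle in 9 members (12.2% of all genes), which include the 6 near 0 reads beside Hoxb5, Hoxb7 and Hoxb8. In these 9 the libraries of the same group held 76.4% to 90.3% of the variation. The shares were not corrected for the number of group means, of which age has more than muscle. In the 6 members near 0 reads age took 8.57% to 13.6% and muscle 0.358% to 2.42%. An age share of a few percent can thus stand in genes not detectable as expressed, and does not measure a change with age.

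The contrast between diaphragm and limb was present at each age. Of the 24 members called in both sexes, 20 were called at each of the 6 ages in both sexes. The other 4 were Hoxa3, Hoxa6, Hoxb6 and Hoxd3. The share of all genes called at every age in both sexes was not computed. At single ages, from the youngest to the oldest, the share of all genes called was 47.8%, 45.8%, 43.2%, 42.5%, 41.8% and 46.6% in females. In males it was 42.0%, 42.8%, 38.9%, 44.4%, 38.2% and 46.6%. Hoxa5 kept a log2 difference of 2.07 to 2.27 over the ages in females and 1.98 to 2.28 in males, Hoxb4 of 2.27 to 2.83 and 2.35 to 2.58, and Hoxc6 of 0.87 to 1.19 and 1.05 to 1.30. Hoxa9 ran from -5.66 to -4.74 and from -6.12 to -4.83. Hoxc10 ran from -11.51 to -8.06 and from -13.22 to -9.09, with diaphragm groups near 0 reads.

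Within each muscle and sex, the older ages were compared with 6 months. With the fold limit of 1.5, the members called at any older age were 1 in female diaphragm (2.95% of all genes) and 2 in male diaphragm (11.0%). They were 0 in female gastrocnemius (9.44%), 2 in male gastrocnemius (8.06%), 5 in female soleus (8.52%) and 1 in male soleus (2.85%). In tibialis anterior they were 1 in females (9.25%) and 2 in males (8.53%). In female gastrocnemius, where that count was 0, 7 members were called by edgeR without the limit on fold (38.8%), and at 27 months 12 of 33 tested had an unadjusted p under 0.05, with 6 called by edgeR, 5 by limma-voom and 6 by DESeq2.

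The members called changed in both directions. Hoxa2 fell at 21 months in male diaphragm by 1.03 ± 0.22 on the log2 scale and in male tibialis anterior by 0.90 ± 0.24, and rose in female soleus by 0.89 ± 0.33. Hoxa3 fell at 21 months in male diaphragm by 0.81 ± 0.16 and at 24 months in male soleus by 0.79 ± 0.24. In male diaphragm at 21 months the liver markers of 1 library summed to 34390 CPM, where the median of the group was 80.1, and the totals of the group ran from 50807874 to 300089909 counts. Without the library high in liver markers Hoxa2 and Hoxa3 were at -0.96 and -0.74 there (adjusted p of 0.02 and 0.012). In female soleus Hoxa4 and Hoxb4 rose at 21 months by 0.69 ± 0.17 and 0.80 ± 0.26, and Hoxb6 at 24 months by 0.84 ± 0.29. Hoxc11 fell there by 0.62 ± 0.23 at 21 months and 0.60 ± 0.22 at 27 months. Hoxb5 and Hoxa2 in male gastrocnemius fell by 0.60 ± 0.20 at 21 months and 0.63 ± 0.21 at 24 months. Hoxa6 in female tibialis anterior fell by 0.64 ± 0.18 at 24 months, and Hoxd4 in male tibialis anterior by 0.71 ± 0.21 at 21 months.

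Tested over all 6 ages at once, with no limit on fold, 0 members were called in female diaphragm (3.93% of all genes), 2 in male diaphragm (7.79%), 7 and 5 in female and male gastrocnemius (35.5% and 28.6%), 3 and 1 in soleus (23.0% and 4.42%) and 1 and 3 in tibialis anterior (25.1% and 25.4%). In female diaphragm, where edgeR called 0, 4 members had an unadjusted p under 0.05, limma-voom called 1 and DESeq2 called 2. Hoxc10 was called in females and males of every limb muscle, with adjusted p from 0.011 in male tibialis anterior to 4.0e-07 in male gastrocnemius. In gastrocnemius its mean was 49.7 ± 3.23 (SD, n = 8) at 6 months and 44.0 ± 3.01 (SD, n = 10) at 27 months in females, and 65.1 ± 2.66 (SD, n = 8) and 54.6 ± 3.67 (SD, n = 10) CPM in males. The male groups did not overlap (61.5 to 68.1 against 48.2 to 59.8), for which no share of all genes was counted, and the female groups did (45.8 to 56.1 against 40.1 to 49.8). In soleus it was 23.2 ± 1.90 (SD, n = 8) and 19.1 ± 2.34 (SD, n = 10) in females and 27.9 ± 4.21 (SD, n = 8) and 20.2 ± 2.50 (SD, n = 10) in males, with overlap in both sexes. The log2 changes from 6 to 27 months were -0.17 ± 0.04 and -0.24 ± 0.04 in female and male gastrocnemius, -0.28 ± 0.07 and -0.47 ± 0.09 in soleus and -0.18 ± 0.04 in female tibialis anterior, which all passed the limit on p at under 1.5-fold, as did 29.3%, 23.3%, 18.8%, 2.85% and 21.9% of all genes at any fold. In male tibialis anterior the change was -0.11 ± 0.05 (adjusted p = 0.11). Hoxa10 fell as well in gastrocnemius at 27 months, by 0.31 ± 0.06 in females and 0.36 ± 0.06 in males. Between these ages the median sum of fibroblast markers went from 2835 to 1492 CPM in female soleus and from 2122 to 1579 in male soleus. In gastrocnemius it went from 2085 to 1447 in females and from 2190 to 1432 in males. In tibialis anterior it went from 1434 to 988 in females and from 1561 to 952 in males. The part of these cells in the Hoxc10 values was not tested.

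**Figure D5:**
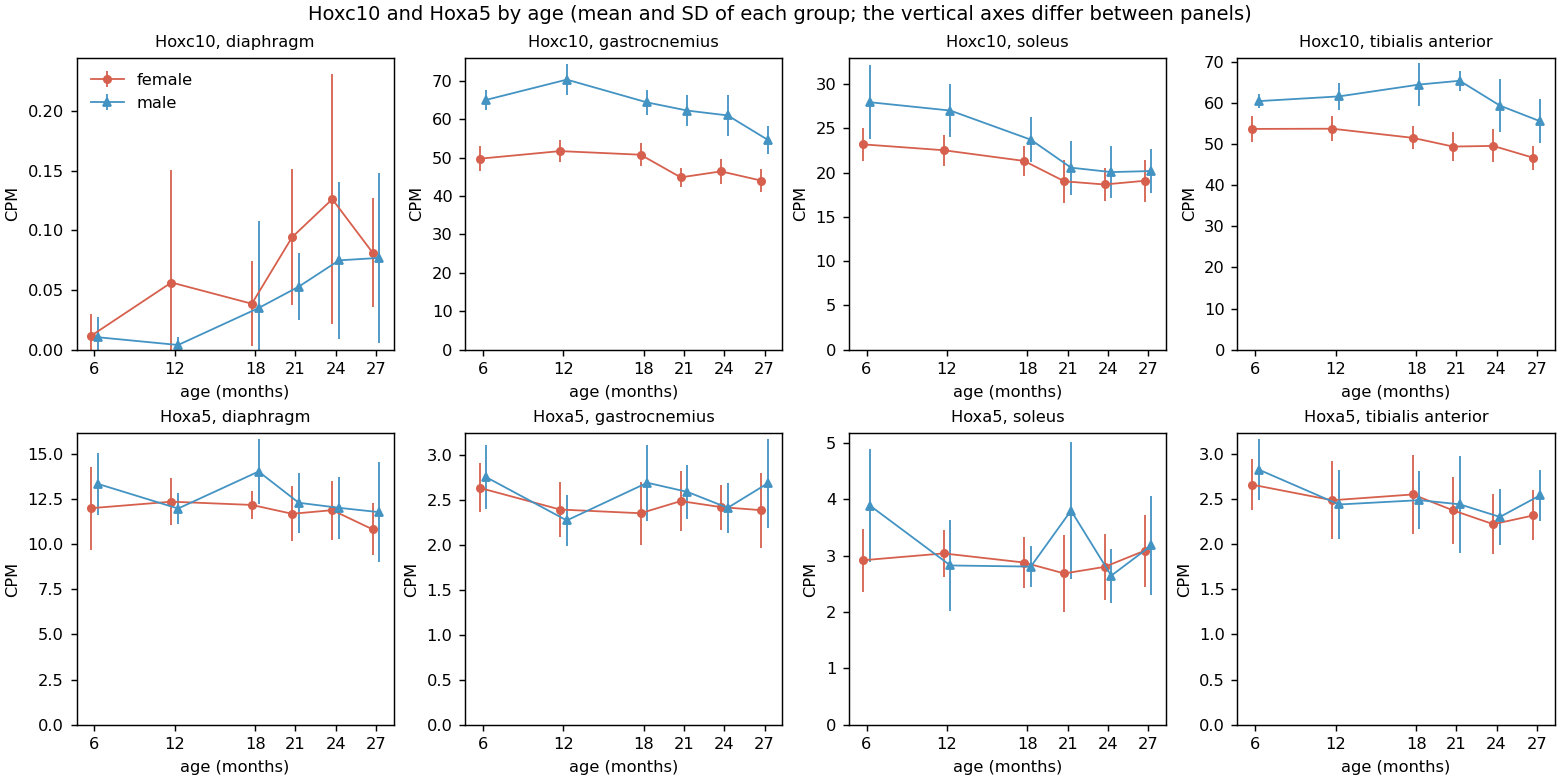
Mean CPM with SD of Hoxc10 and Hoxa5 against age in months in each muscle, for females and males. From 6 to 27 months Hoxc10 goes from 27.9 ± 4.21 (SD, n = 8) to 20.2 ± 2.50 (SD, n = 10) CPM in male soleus, while in diaphragm it stays below 0.3 CPM in every library.

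In diaphragm the trace of Hoxc10 went the other way. Pooled over libraries it was 0.0113 CPM at 6 months (14 reads, 6 of 16 libraries above 0), 0.0293 at 12, 0.0353 at 18, 0.0698 at 21, 0.102 at 24 and 0.0801 at 27 months (136 reads, 17 of 20 libraries above 0). The libraries ran from 0 to 0.0425 CPM in females and 0 to 0.0450 in males at 6 months, and from 0.0317 to 0.164 and 0 to 0.218 at 27 months, with overlap in both sexes. In females the log2 change at 24 months was 3.26 ± 0.83 (adjusted p = 0.017). In male diaphragm alone Hoxc10 failed the filter on low counts, so its change with age was not tested there. The change from 6 to 27 months differed between diaphragm and limb by 2.88 ± 0.45 in females and 2.93 ± 0.51 in males (adjusted p of 1.4e-06 and 2.9e-05, where 3.70% and 7.19% of all genes were called). In males Hoxc10 entered this test through its limb counts, so the value rests on a diaphragm level near 0 reads. Sim1, also a limb gene, went from 0.0169 CPM at 6 months to 0.0748 at 27 months in diaphragm (2 of 16 and 10 of 20 libraries above 0), and Mettl21c from 0.138 to 0.0872. Myh13 was at 0.00564 CPM at 6 months, 0.0503 at 24 and 0.0183 at 27 months, and Hotair had 1 read at 27 months and 0 at the other ages. The part of reads from limb muscle in these traces was not tested.

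In females the change from 6 to 27 months differed between diaphragm and limb in 3 further members, Hoxc8 (1.21 ± 0.32), Hoxc9 (1.20 ± 0.29) and Hoxa11 (-3.08 ± 0.64). The Hoxa11 value rests on few reads, 13 in diaphragm at 6 months and 11 at 27 months over both sexes. Without the diaphragm library of 27 months that stood apart, the values were 0.24 for Hoxc8 (adjusted p = 0.65), 1.18 for Hoxc9 and 2.65 for Hoxc10. Without the libraries whose skin markers summed to over 10 CPM (not scaled for library composition), also chosen after seeing the data, Hoxa11 turned to 0.26 and Hoxc9 went to 0.83 (adjusted p of 1.0 and 0.15), while Hoxc10 was at 2.47. The 71 libraries over that limit in both sexes included 38 of females, 49 of gastrocnemius and 16 of diaphragm, so these fits also held fewer libraries. In males the same differences were 0.66 ± 0.25, 0.64 ± 0.33 and 1.80 ± 0.71, with adjusted p of 0.093, 0.24 and 0.14. Pooled over both sexes Hoxc9 was at 0.0845 CPM at 6 months and 0.154 at 27 months in diaphragm.

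With the fold limit, 0 members were called between females and males in diaphragm (5.18% of all genes) and tibialis anterior (5.27%). Hoxc13 was the single member in gastrocnemius (1.15 ± 0.35 on the log2 scale, 8.17%) and soleus (1.34 ± 0.38, 3.97%). In gastrocnemius the skin epithelium markers had group medians of 24.0 to 151.9 CPM in females and 1.86 to 2.56 in males from 6 to 24 months, and of 10.1 and 74.4 at 27 months. In soleus these medians were 2.23 to 3.10 in females and 3.05 to 3.70 in males. The part of skin in these differences of the sexes was not tested. Without that limit edgeR called 14 members in gastrocnemius (58.3%), 9 in tibialis anterior (47.8%), 6 in diaphragm (18.9%) and 5 in soleus (30.9%). In diaphragm limma-voom called 8 and DESeq2 6, and in tibialis anterior each called 9. Hoxc10 ran from 40.1 to 56.4 (median 47.8) CPM in females and 48.1 to 76.5 (median 63.0) in males of gastrocnemius, so the sexes overlapped over all ages. Its log2 difference, female minus male, was -0.38 ± 0.02 in gastrocnemius, -0.27 ± 0.02 in tibialis anterior and -0.15 ± 0.03 in soleus. In gastrocnemius its female and male libraries did not overlap at 6, 12, 18 and 21 months, for example 45.8 to 56.1 CPM against 61.5 to 68.1 at 6 months. The share of all genes that separated the sexes so was not counted. Hoxa11 and Hoxc11 were lower in females of gastrocnemius, at -0.57 ± 0.06 and -0.41 ± 0.05, and of tibialis anterior, at -0.38 ± 0.07 and -0.32 ± 0.05. In diaphragm Hoxd3 (0.47 ± 0.16), Hoxd4 (0.32 ± 0.08), Hoxd8 (0.24 ± 0.08) and Hoxd9 (0.36 ± 0.11) were higher in females and Hoxc5 (-0.17 ± 0.05) and Hoxc6 (-0.24 ± 0.06) lower.

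Partners and regulators of the Hox genes were read from the same comparison of diaphragm with limb, in which 26.4% of all genes tested were higher in both sexes and 14.7% lower. Of the 11 cofactors of the TALE class, homeodomain proteins that bind DNA beside Hox proteins, 5 were higher in diaphragm in both sexes and 0 lower, with a median log2 difference of 0.20 in females and 0.11 in males. Meis2 ran from 20.4 to 41.0 CPM in diaphragm against medians of 2.07, 1.19 and 0.499 in gastrocnemius, soleus and tibialis anterior, at log2 4.77 ± 0.05 and 4.83 ± 0.07. Meis1 was higher by 0.82 ± 0.03 and 0.76 ± 0.03, and Tgif2, Meis3 and Pbx4 were the other 3. Of the 27 Polycomb genes, whose products keep Hox genes silent, 2 were higher, among them Pcgf2, and 4 lower (Pcgf3, Pcgf5, Phc1 and Scmh1), with medians of -0.05 and -0.20. Of 11 Trithorax group and H3K27 demethylase genes Psip1 alone was called, as higher, with list medians of -0.10 and -0.21.

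Of 17 noncoding genes of the Hox clusters with counts here, 6 were tested, of which Hoxaas2 was higher in diaphragm (3.21 ± 0.19 and 3.06 ± 0.20) and Hotair, Hottip and Hoxa11os lower. Of 13 genes upstream of the Hox code in the embryo, 2 were higher and 5 lower (26.4% and 14.7% of all genes), with Gdf11 at -1.96 ± 0.08 and -2.51 ± 0.10. Of 32 further genes of limb and trunk identity 12 were higher and 10 lower (26.4% and 14.7% of all genes). Pitx1, which makes a hindlimb of a limb bud, had medians of 0 CPM in diaphragm and 0.220, 0.373 and 0.223 in limb (-6.42 ± 0.24 and -5.95 ± 0.31). Tbx5, a gene of forelimb and heart, had 0.770 CPM in diaphragm against 0.0790, 0.0245 and 0.0557 (3.71 ± 0.16 and 3.42 ± 0.19). Gata4, needed for the connective tissue of the diaphragm, had a median of 4.35 CPM in diaphragm and 0, 0 and 0 in limb. Pax3, a gene of muscle precursors, had 5.53 CPM in diaphragm against 0.268, 0 and 1.24 (5.41 ± 0.09 and 4.86 ± 0.11).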

How the data were processed

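RNA-seq was done on total RNA of the muscles with a strand-specific kit, and reads of 76 bases were aligned to mm10 and counted per gene with ArrayStudio on an in-house gene model built on RefSeq. Neither the version of ArrayStudio nor the strand setting of the counting is given in the sources used here. The authors deposited raw read counts per gene, 1 column per library, and these deposited counts were used as they stand. Of 25091 rows, 633 whose symbol stood on more than 1 row, with 0.0335% of the counts, were left out. Totals per library ran from 38583802 to 300089909 counts with a median of 72766895, so at this depth 1 count is a small fraction of 1 CPM. Intervals and floors cover counting error only. No libraries held identical counts. The labels tie no library to an animal, so p-values measure only the spread between these samples.

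Groups were taken from the labels as muscle, sex and age. Counts were tested with edgeR 4.0.16 in R 4.3.3 (TMM scaling, filterByExpr, quasi-likelihood F test), over all genes that passed the filter and with Benjamini-Hochberg adjustment. Muscles were compared within each sex over all ages, ages within each muscle and sex, and sexes within each muscle. A gene was called at a fold over 1.5 and an adjusted p under 0.05, while the test over all ages and the changes between ages across muscles or sexes had no limit on fold. Alternatives were limma 3.58.1 (voom), DESeq2 1.42.0, RLE scaling, no filter, a replicate block, other limits and fewer libraries. The run of the sample numbers was also used as a covariate. A run is a block of nearby numbers within a muscle, and what it stands for is not stated. Muscles were mostly numbered in separate stretches. In diaphragm the libraries of 21 months were all in run 2, and run 3 held only libraries of 27 months, so run and age are partly tied. The fits were tested on simulated data first. Log CPM used a prior count of 0.5.

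The members and gene lists were chosen with earlier results of these data known. All members may be named. Other genes were named where a list other than a marker list holds them and they were called, or as the 5 highest and the 5 lowest in diaphragm against limb that are no Hox genes. Sequences came from GENCODE M21 transcripts and the RefSeq promoter table, which held 22 of the 39 genes. Single values of 1 member and of 2 other genes are not reported here.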

Additional observations from a re-analysis of the deposited data

Results flagged for a closer look

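The share of Hox reads or the level of a Hox gene was examined within the 48 groups of 6 to 10 libraries, as 180 sets of values. Of these, 16 held a library far from the others of its group by Dixon's test, which chance does in about 1 of 20 sets. The same libraries were examined for more than 1 measure, so the sets are not independent. The share of Hox reads from paralog groups 9 to 13 in female gastrocnemius 18 months was 59.2% in replicate 2 against 55 to 56.9% in the others. Hoxc10 in male gastrocnemius 21 months was 54.1 CPM in replicate 0 against 61.1 to 67 CPM in the others. Hoxc10 in male gastrocnemius 24 months was 48.1 CPM in replicate 8 against 57.4 to 66.2 CPM in the others. Hoxc10 in male tibialis anterior 24 months was 44.5 CPM in replicate 8 against 55.2 to 67.2 CPM in the others. Hoxd8 in female diaphragm 24 months was 7.34 CPM in replicate 3 against 3.57 to 5.31 CPM in the others. Hoxd8 in female diaphragm 27 months was 13.8 CPM in replicate 0 against 3.04 to 6.4 CPM in the others. Hoxd8 in female tibialis anterior 18 months was 3.24 CPM in replicate 5 against 2.03 to 2.52 CPM in the others. Hoxd8 in male diaphragm 6 months was 7.44 CPM in replicate 2 against 2.99 to 4.54 CPM in the others. Hoxd8 in male soleus 21 months was 12.3 CPM in replicate 4 against 7.03 to 9.24 CPM in the others. Hoxd8 in male tibialis anterior 21 months was 4.16 CPM in replicate 6 against 1.38 to 2.63 CPM in the others. Hoxd8 in male tibialis anterior 27 months was 3.88 CPM in replicate 8 against 1.8 to 2.85 CPM in the others. Hoxa5 in female diaphragm 18 months was 10.7 CPM in replicate 5 against 12.2 to 13.2 CPM in the others. Hoxa5 in female tibialis anterior 18 months was 1.69 CPM in replicate 3 against 2.48 to 3.04 CPM in the others. Hoxa5 in male diaphragm 18 months was 10.6 CPM in replicate 2 against 13.8 to 15.6 CPM in the others. Hoxa5 in male diaphragm 24 months was 8.09 CPM in replicate 6 against 11 to 14.2 CPM in the others. Hoxa5 in male soleus 18 months was 3.57 CPM in replicate 4 against 2.39 to 2.93 CPM in the others.

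In 6 tests of whether a change from 6 to 27 months differed between muscles, a Hox gene passed at an adjusted p under 0.05 (edgeR). For Hoxa11 in females, diaphragm minus limb, the value was -3.08 ± 0.64 on the log2 scale (adjusted p = 0.0056). For Hoxc10 in females, diaphragm minus limb, the value was 2.88 ± 0.45 on the log2 scale (adjusted p = 1.4e-06). For Hoxc8 in females, diaphragm minus limb, the value was 1.21 ± 0.32 on the log2 scale (adjusted p = 0.01). For Hoxc9 in females, diaphragm minus limb, the value was 1.20 ± 0.29 on the log2 scale (adjusted p = 0.0044). For Hoxc13 in females, soleus minus tibialis anterior, the value was 5.23 ± 1.53 on the log2 scale (adjusted p = 0.02). For Hoxc10 in males, diaphragm minus limb, the value was 2.93 ± 0.51 on the log2 scale (adjusted p = 2.9e-05). Hoxc10 in male diaphragm, Hoxa11 in female diaphragm and Hoxc13 in female tibialis anterior failed the filter in the fits of those muscles alone.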

How the results depend on the processing

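Under the alternatives run for diaphragm against limb, the counts of members called were within 1.5 times those given. Of the differences with an adjusted p under 0.05 there, none changed sign, and 11 of their values under the alternatives, those of Hoxb8 and Hoxa7 in males and Hoxc4 in females, missed that limit on p. RLE scaling moved the median of all genes by 0.19 on the log2 scale in the male comparison. With no limit on fold, the limb muscles differed in 26 members in females and 28 in males, and the sexes in 14 in gastrocnemius, 9 in tibialis anterior, 6 in diaphragm and 5 in soleus. With the lower fold limit that was tried the members called at any older age were 4 in female and 4 in male gastrocnemius, 3 in male soleus and 3 in female tibialis anterior, and with Bonferroni adjustment 0 in diaphragm of either sex, male gastrocnemius, soleus of either sex and tibialis anterior of either sex. With limma-voom the change from 6 to 27 months differed between diaphragm and limb in 2 members in females, and the 6 ages in 1 in female diaphragm and 2 in female tibialis anterior. With limma-voom and the fold limit, the sexes differed in 1 member in diaphragm and 3 in soleus, and any older age in 0 in male soleus. Without that limit limma-voom called 8 members between the sexes in diaphragm and 7 in soleus. With DESeq2 the 6 ages differed in 2 members each in female diaphragm, male soleus and female tibialis anterior. With no filter, any older age gave 1 in female gastrocnemius, 3 in female soleus, 0 in male soleus and 2 in female tibialis anterior, the 6 ages 2 in male soleus and 2 in female tibialis anterior, and the difference of sexes in the change from 6 to 27 months 1 in gastrocnemius and 1 in tibialis anterior. RLE scaling gave 1 for any older age in male gastrocnemius, and the run of the sample numbers as a covariate 0 in male soleus and 3 over the 6 ages in female tibialis anterior. At a limit of 0.5 CPM, 21 members were present in soleus and 20 in tibialis anterior. With limma-voom Hoxa6 turned to 0.16 for gastrocnemius minus soleus and Hoxd3 to -0.10 for soleus minus tibialis anterior, both in males. The cause was not tested.

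Libraries of different muscles with the same number deviated together in part. The median r was 0.33 for gastrocnemius and tibialis anterior, 0.24 for gastrocnemius and soleus and 0.19 for soleus and tibialis anterior, with 92.2%, 73.8% and 77.2% of pairs over 0.1, against -0.05, -0.04 and -0.03 for other numbers, and it was 0.02 between diaphragm and each limb muscle. Not every pair passed 0.1, so the numbers were not taken as pairs, and whether they mark the same mouse is not settled. With the replicate block, members called were 27 in females and 26 in males between diaphragm and limb, 0 at any older age in female diaphragm, male soleus and female tibialis anterior, and 0 over the 6 ages in male diaphragm. Hoxc10 at 24 months in female diaphragm was then at 3.25 with an adjusted p of 0.059.

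Of the alternatives chosen after seeing the data, leaving out the libraries high in skin markers gave 1 member in females and 4 in males for the change from 6 to 27 months between diaphragm and limb, and turned Hoxa11 to 0.26 in females. Leaving out the 15 soleus libraries with under 15000 genes detected gave 2 members over the 6 ages in male soleus. Groups of over 5 libraries were not tested with each replicate left out, and depth limits the members near 0 reads.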
